A study of Mus musculus with 24 samples.

Results

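The genes described here are the regulators of the RhoA, Rac1 and Cdc42 family of small GTPases that carry an Arhgef or Arhgap symbol, in primary mouse brain microvascular endothelial cells. Of the 18091 genes in the wild-type table, 55 were protein-coding with such a symbol. The 48 with a mean of at least 10 normalized counts over 20 wild-type libraries were kept, 21 Arhgef and 27 Arhgap genes. They are 48 of the 12249 genes that passed the same minimum and entered the tests. The minimum was set on the mean over all groups, and no gene was chosen by its difference between groups.

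The cells line the capillaries of the brain and form the blood-brain barrier. They were isolated from the cortex and midbrain vessels of C57B/6J wild-type mice, with 12 mice pooled per replicate, kept in puromycin for 48 h to remove other cell types, and grown on transwell inserts. From 48 h after seeding they were treated for 24 h from the apical or the basolateral side. The 5 groups of 4 libraries were vehicle, 500 nM of the S1P4 receptor agonist CYM50260 apical, the same agonist basal, 50 nM sphingosine-1-phosphate (S1P) apical, and 50 nM S1P basal. In the series' design text the barrier-opening treatment is basal S1P, and the other 3 treatments are barrier-tightening. RNA of 3 inserts was pooled per library. All groups share the culture without neighbouring brain cells and the puromycin step, which limits them as a model of the vessel wall. The 4 vehicle-treated libraries of global S1P4 knockout cells are not analysed here.

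GTPases of this family switch between a GDP-bound and a GTP-bound state. Guanine nucleotide exchange factors (GEFs, the Arhgef genes) load GTP and turn them on, and GTPase-activating proteins (GAPs, the Arhgap genes) speed GTP hydrolysis and turn them off. In endothelium, active RhoA drives actomyosin tension that can pull junctions open, while Rac1 and Cdc42 support cortical actin and junctions. Several S1P receptors signal to these GTPases through heterotrimeric G proteins. The measurements here are of mRNA and carry no information on GTPase activity.

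Values are normalized counts, the authors' gene counts divided by a factor per library and rounded. Library totals were 4.49 to 4.72 M normalized counts, and the estimated reads on genes were 3.93 to 5.54 M. All 16 endothelial markers were detected, with a summed level of 29536 to 35749 per library. Of 12 microglial and leukocyte markers in the table, 9 were below a mean of 10, Ptprc, Aif1, Cx3cr1 and Csf1r among them. The other 3, Cd68, Laptm5 and Lyz2, were above it. The 12 summed to 704 to 868 normalized counts per library. Pericyte markers (11 of 11 in the table, Kcnj8 and Higd1b below a mean of 10) summed to between 285 and 2971 and differed mostly by the replicate number of the label. In this bulk RNA, fewer cells of a type and less RNA per cell cannot be told apart. The libraries apical S1P replicate 3 and basal S1P replicate 2 stood apart from the others of their number. Their deviations from the group means had r = 0.03 to 0.40 and -0.34 to 0.38 with their own numbers across genes, and 0.66 with each other. The library labelled apical S1P replicate 4 correlated best with the number 3 libraries (r = 0.63 to 0.70) and less with its own number (0.17 to 0.40). It also departed from its number, but was not left out together with the other 2. Whether labels of these libraries were exchanged was not tested, and every test takes the labels as given. No source used here says that libraries come from separate pools of mice, so the p-values speak only of the spread among the libraries measured.

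Arhgap29 was the most abundant of the 48 genes per exonic length. That length joins all exons annotated for a gene and can exceed that of any single transcript, which lowers the rank of such genes. Per exonic kilobase it averaged 296 normalized counts over the 20 libraries, followed by Arhgap31 with 261, Arhgap1 with 174, Arhgef12 with 153, Arhgef28 with 150 and Arhgap23 with 149. Arhgap29 encodes a RhoA GAP that works with Rasip1 and Rap1 in endothelium, Arhgap31 (CdGAP) a GAP for Rac1 and Cdc42, and Arhgap1 a GAP for Cdc42. The next were Arhgef15 with 140 per kilobase, Arhgap35 with 136, Arhgef2 with 114, Arhgef7 with 114, Arhgef1 with 112 and Arhgap18 with 106. Arhgef15 is an exchange factor enriched in endothelium, Arhgap35 is p190RhoGAP-A, Arhgef2 is the microtubule-bound GEF-H1, and Arhgef7 is beta-PIX, which binds Git proteins and PAK kinases.

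Neighbours in this order often did not differ beyond their spread. In the vehicle libraries Arhgef12 (154 ± 13.9 per kilobase, SD, n = 4), Arhgef28 (154 ± 14.04) and Arhgap23 (143 ± 9.34) differed by no more than about 1 SD. Arhgap29 (292 ± 17.5) and Arhgap31 (255 ± 17.2) were apart from Arhgap1 (170 ± 11.2) by several SD. The median of the 48 genes was 57.9 per kilobase, against 54.1 for all tested genes, and 27 of 48 lay above the median tested gene. The levels spanned from 296 down to 1.20 per kilobase for Arhgap24, and 31 of the 48 genes had a highest library under 2 times the lowest.

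**Figure D1:**
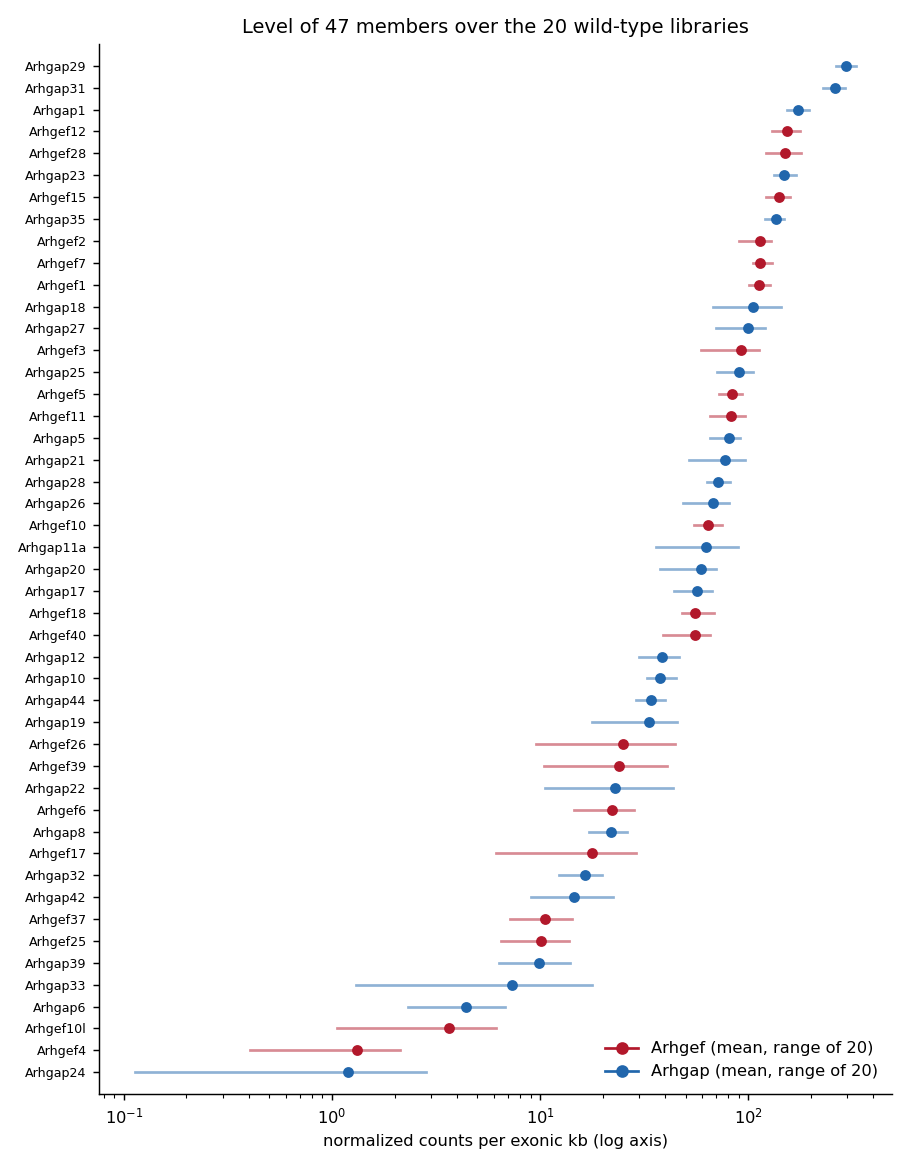
Mean level (point) and range over the 20 wild-type libraries (line) of 47 of the 48 genes in normalized counts per exonic kilobase, on a log axis, with Arhgef genes in red and Arhgap genes in blue. Arhgap29 and Arhgap31 lead with 296 and 261, several genes below about 10 per kilobase have wide ranges, and Arhgap24 is lowest with 1.20.

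At the lower end, Arhgap24 (mean of 20 libraries 10.6 normalized counts), Arhgef4 (13.1), Arhgef10l (20.8), Arhgap33 (39.2) and Arhgef25 (40.6) were the 5 genes just inside the minimum. Just below it were Arhgef19 with 6.75, Arhgap45 with 4.10, Arhgap4 with 1.6, Arhgef33 with 0.75 and Arhgap30 with 0.65. Arhgap9 and Arhgap36 were lower still, at 0.60 and 0.25. Arhgap4, Arhgap9, Arhgap30 and Arhgap45 are known from leukocytes. Of the 3 other genes on the list of leukocyte regulators that entered the tests, Arhgef1 and Arhgef6 are also expressed outside leukocytes, and Arhgap25 was clearly present with 315 to 466 normalized counts.

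Arhgap29 (chromosome 3, 121952541 to 122016753, plus strand, mm10) held 2407, 2475, 2682 and 2723 normalized counts in the 4 vehicle libraries and 2562, 2516, 2704 and 2801 with basal S1P. Arhgap31 (chromosome 16, 38598340 to 38713274, minus strand) held 2892, 2960, 2557 and 2956 with vehicle and 2740, 2623, 2943 and 2892 with basal S1P. For both the groups overlapped. The log2 change of basal S1P against vehicle was 0.04 ± 0.06 (SE) for Arhgap29 and -0.02 ± 0.06 for Arhgap31, on the log2(value + 1) scale of the limma fit used for all changes below.

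The exchange factors that link G proteins to RhoA were present at high and middle levels. Arhgef12 (LARG), Arhgef1 (p115-RhoGEF) and Arhgef11 (PDZ-RhoGEF) carry an RGS-like domain that binds the G proteins encoded by Gna12 and Gna13. Arhgef12 (chromosome 9, 42963842 to 43107239, minus strand) held 2092, 2122, 1854 and 2317 normalized counts with vehicle and 2117, 1768, 2056 and 2407 with basal S1P. The group means of Arhgef12 lay between 2019 ± 130 with apical S1P and 2124 ± 205 with the apical agonist (SD, n = 4). Those of Arhgef1 lay between 836 ± 49.3 with basal S1P and 878 with apical S1P (SD 83.4) and with the basal agonist (SD 25.6), and those of Arhgef11 between 603 ± 71.5 with basal S1P and 700 ± 69.7 with the basal agonist. None of the differences between these means passed the test. Gna12 and Gna13 themselves averaged 1073 ± 67.2 and 744 ± 68.8 normalized counts with vehicle and 1112 ± 82.1 and 758 ± 48.6 with basal S1P.

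None of the 48 genes passed the test in any comparison of treatments in the main fit, which has no term for replicate number. With that term Arhgap20 passed in basal S1P against the 3 tightening treatments (limma adjusted p = 0.0113), where 137 of all 12249 tested genes did. Arhgef17 then passed in basal against apical S1P (limma adjusted p = 0.0472), where 83 of the 12249 did. That fit takes the numbers of apical S1P replicates 3 and 4 and of basal S1P replicate 2 as labelled, and was not run without these libraries. The counts that follow are of the main fit. For basal S1P against vehicle, 0 of 48 passed at an adjusted p under 0.05 (limma, Benjamini-Hochberg over 12249 genes), where 0.0245% of all tested genes did. At an unadjusted p under 0.05, 2 of the 48 were counted, Arhgap20 and Arhgap26, a share of 4.17% beside 5.22% of all tested genes. The standard errors of the 48 changes ran from 0.05 to 0.80 with a median of 0.14, so the width of what could have been missed differed greatly between genes. Data were simulated for this comparison with independent noise per gene and library, no differences between replicate numbers, and 200 changed genes per draw. There, 56.7% of genes changed 1.5-fold and 80% of genes changed 2-fold were recovered. These shares hold for that setting and do not measure what could be recovered in the real libraries. These treatment comparisons share libraries with one another (vehicle, S1P or agonist) and are not independent of each other.

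For apical S1P against vehicle, 0 of 48 genes passed and 0 at an unadjusted p under 0.05 (limma), where 0.0% and 0.996% of all tested genes did. For the apical agonist against vehicle the counts were 0 and 0, beside 0.0% and 1.09%. For the basal agonist against vehicle they were also 0 and 0, beside 0.0% and 0.31%, and for the basal against the apical agonist 0 and 0, beside 0.0% and 0.498%. For basal against apical S1P, 0 passed and 2 had an unadjusted p under 0.05 (Arhgap20 and Arhgap25), beside 0.0245% and 4.01%. For basal S1P against the mean of the 3 tightening treatments, 0 passed and 2 had an unadjusted p under 0.05 (Arhgap20 and Arhgap17), beside 0.049% and 5.63%. The test of any difference among the 5 groups called 0 and had 1 gene at an unadjusted p under 0.05, Arhgap20, beside 0.0245% and 1.73%.

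**Figure D2:**
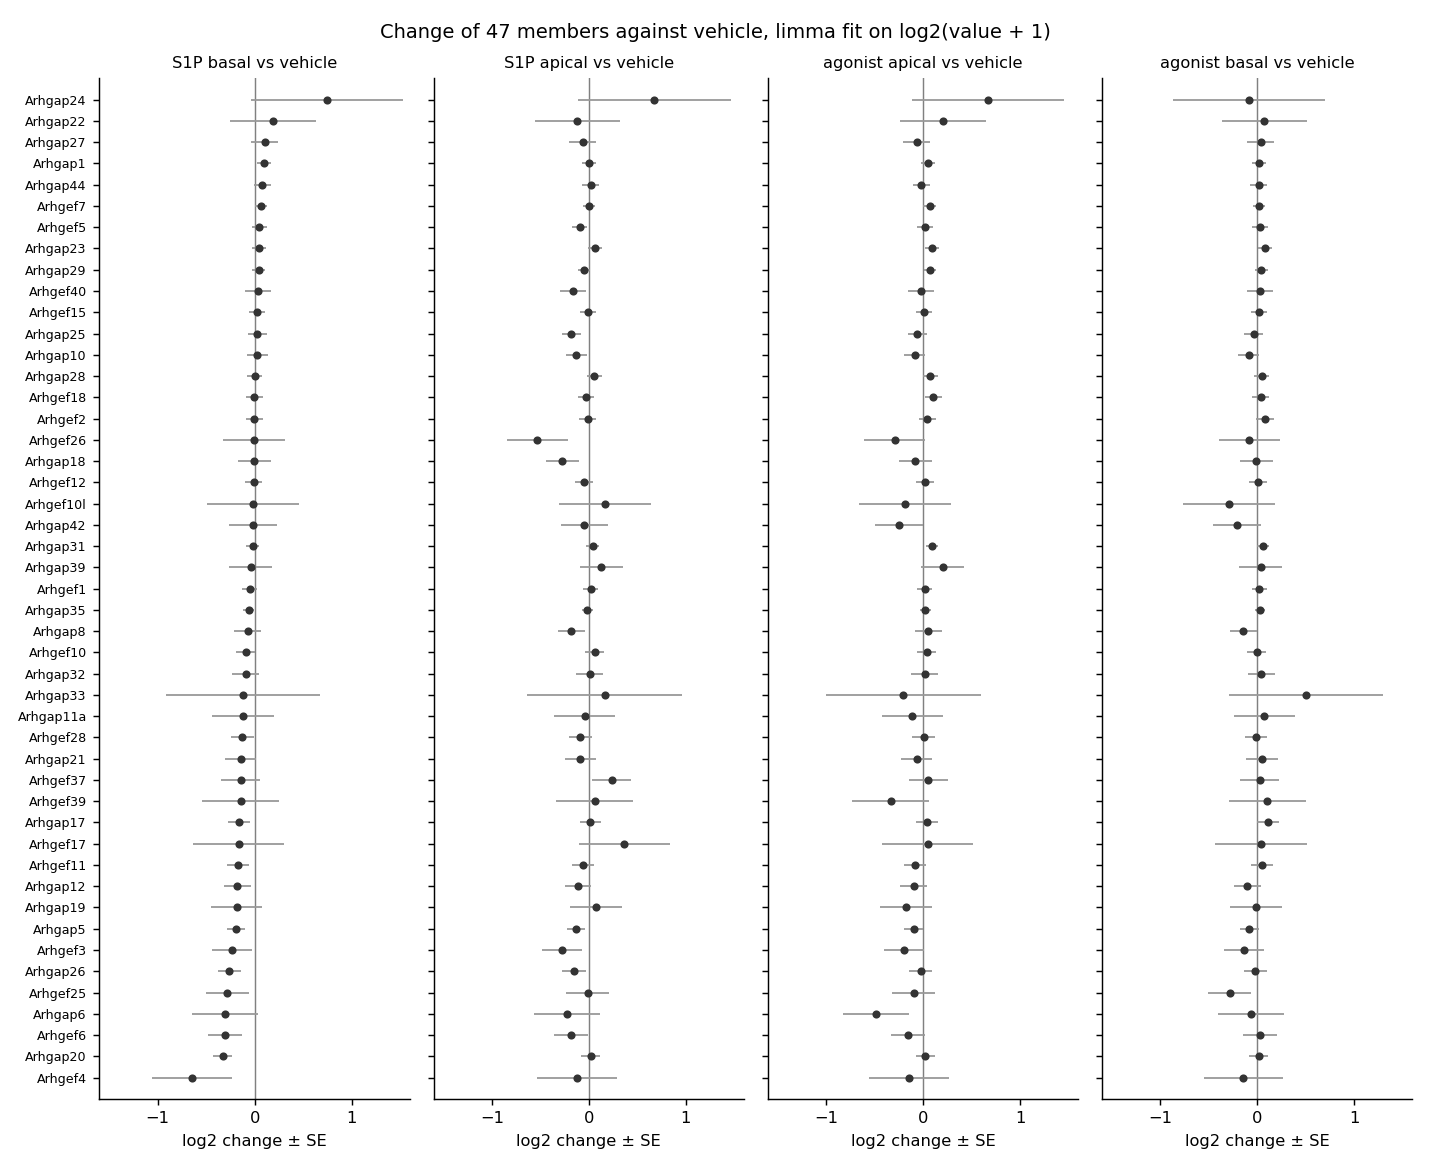
Log2 change (point) and its standard error (line) of 47 of the 48 genes in the 4 comparisons with vehicle, ordered by the change with basal S1P. Most points lie within 1 or 2 standard errors of 0; Arhgap20 has a short line clear of 0 with basal S1P, at -0.33 ± 0.10, and not in the other 3 panels, and the widest lines belong to the low genes Arhgap24 and Arhgap33.

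Arhgap20 had the smallest p of the 48 genes in all 3 comparisons of basal S1P. It encodes a RhoA GAP that is activated by Rap1, and is the gene ENSMUSG00000053199 (chromosome 9, 51765337 to 51853856, plus strand, mm10). Its 4 vehicle libraries held 864, 778, 690 and 775 normalized counts. With basal S1P they held 723, 480, 664 and 628.

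The libraries with apical S1P held 780, 760, 764 and 840 of Arhgap20, those with the apical agonist 886, 720, 786 and 769, and those with the basal agonist 800, 737, 779 and 818. The 4 basal S1P libraries were all below the 4 apical S1P and the 4 basal agonist libraries, and overlapped with vehicle and the apical agonist through replicate 1 at 723. Within each of the 4 replicate numbers the basal S1P library was the lowest of the 5.

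The group means of Arhgap20 were 777 ± 71.1 with vehicle (SD, n = 4), 624 ± 104 with basal S1P, 786 ± 37.0 with S1P on the apical side, 790 ± 69.7 with the apical agonist and 784 ± 34.9 with the basal agonist. Against vehicle the log2 change was -0.33 ± 0.10 (SE, limma adjusted p = 0.756), against apical S1P -0.35 ± 0.10 (adjusted p = 0.717), and against the 3 tightening treatments -0.35 ± 0.08 (adjusted p = 0.150, unadjusted p = 0.000417). None of these passed in the fit without replicate number as a term. With that term the change against the 3 tightening treatments passed (limma adjusted p = 0.0113), where 137 of all 12249 tested genes did. The lowest library, basal S1P replicate 2, is one of those that stood apart, and without it the 3 changes were -0.21, -0.23 and -0.23. Treatment group accounted for 54.2% of the variance of Arhgap20, the highest share of the 48 genes, where the median was 13.8% for these genes and 13.9% for all tested genes. The sum of pericyte markers was 2419, 1682, 1107 and 322 in the same 4 basal S1P libraries. In the vehicle libraries it was 2958, 2322, 1319 and 332. Against the 3 tightening treatments the mean with basal S1P was lower in 9 of 9 tested pericyte markers (median log2 difference -0.33). It was lower in 9 of 11 smooth muscle markers (-0.29). None of these markers passed in the main fit, and their part in the Arhgap20 values was not tested.

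The 250 bases before the RefSeq start of Arhgap20 are shown because it was the gene with the most constant position of basal S1P; they lie at chr9:51765101-51765350 on the plus strand (GRCm38.p6), 5′ to 3′, and the last 14 fall inside the gene as the table gives it. The motifs TTTGAA and CCAAT, searched on both strands and written in capitals where found, do not occur in this window.
Arhgap20: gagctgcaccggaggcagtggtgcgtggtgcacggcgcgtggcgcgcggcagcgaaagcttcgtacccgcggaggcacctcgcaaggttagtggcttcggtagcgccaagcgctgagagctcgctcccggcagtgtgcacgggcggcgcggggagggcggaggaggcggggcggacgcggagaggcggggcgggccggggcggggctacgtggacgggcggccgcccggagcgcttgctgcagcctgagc

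Groups that did not overlap were rare. In basal against apical S1P, 2 of the 48 genes had every basal library below every apical library, where 0.645% of all tested genes did. The 2 were Arhgap20 and Arhgef10, and Arhgef10 is named because the count was small, after its values were seen. Arhgef10, an exchange factor for RhoA, held 608, 628, 631 and 588 normalized counts with apical S1P and 586, 552, 505 and 574 with basal S1P. The nearest libraries were 2 apart, and the change of -0.15 ± 0.10 did not pass (limma adjusted p = 0.999).

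In the other comparisons none of the 48 genes had separate groups. Basal S1P against vehicle gave 0 lower and 0 higher, beside 1.08% and 1.03% of all tested genes, and apical S1P against vehicle 0 and 0, beside 0.718% and 0.604%. The apical agonist against vehicle gave 0 and 0 beside 0.343% and 0.335%, and the basal agonist 0 and 0 beside 0.31% and 0.278%. The basal against the apical agonist gave 0 and 0 beside 0.171% and 0.261%, basal S1P against the 3 tightening treatments 0 and 0 beside 0.147% and 0.106%, and basal against apical S1P 0 higher beside 0.751%.

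**Figure D3:**
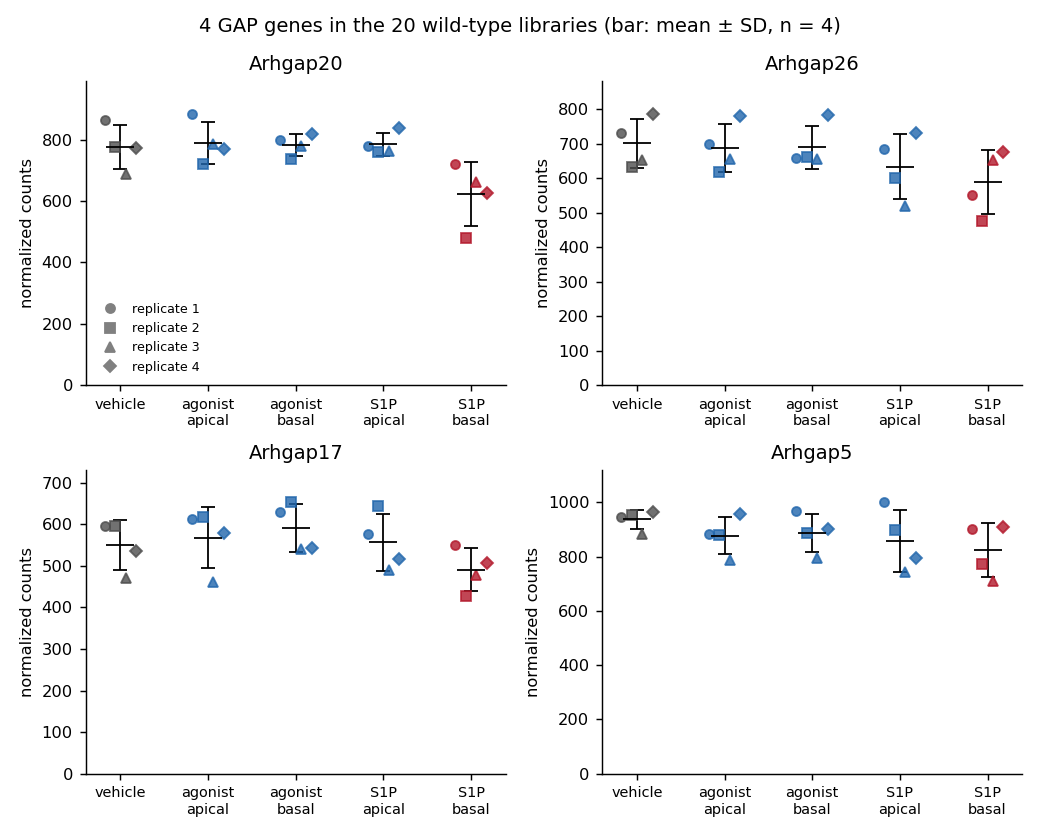
Normalized counts of Arhgap20, Arhgap26, Arhgap17 and Arhgap5 in the 20 libraries, by group, with the mean and SD of 4 libraries as bars and the replicate number as the shape of the point. For Arhgap20 the 4 basal S1P libraries (480 to 723) sit below the 4 apical S1P libraries (760 to 840), while the groups of the other 3 genes overlap.

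Arhgap26 and Arhgap5 had lower means with basal S1P than with vehicle by a little over 2 standard errors. Arhgap17 did so against the 3 tightening treatments, while its change against vehicle was -0.16 ± 0.11. None of the 3 genes passed. Arhgap26 (GRAF1, a RhoA and Cdc42 GAP that binds focal adhesion kinase) held 732, 632, 653 and 788 normalized counts with vehicle and 553, 475, 652 and 676 with basal S1P, and its change was -0.26 ± 0.12 (limma adjusted p = 0.756), or -0.16 without basal S1P replicate 2. Arhgap5 (p190RhoGAP-B) held 946, 955, 885 and 963 with vehicle and 903, 772, 710 and 909 with basal S1P, a change of -0.19 ± 0.10. In both genes the groups overlapped. Arhgap17 (RICH1, a Cdc42 and Rac1 GAP of cell junctions) averaged 491 ± 51.7 with basal S1P and 572 over the 3 tightening treatments, a change of -0.22 ± 0.09 (adjusted p = 0.822). Against the tightening treatments Arhgap26 changed by -0.19 ± 0.10, Arhgap35 by -0.07 ± 0.04 and Arhgap31 by -0.08 ± 0.05. Without basal S1P replicate 2 these changes were -0.09, -0.03 and -0.05. None of these genes passed.

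Of the exchange factors, Arhgef6 (alpha-PIX, which acts on Rac1 and Cdc42) averaged 204 ± 29.9 normalized counts with vehicle and 165 ± 26.5 with basal S1P, a log2 difference of -0.31 ± 0.18. Arhgef4 (Asef) was near the minimum, with 21, 19, 9 and 11 with vehicle and 15, 9, 4 and 10 with basal S1P, and its difference was -0.65 ± 0.41. Arhgef5 and Arhgef28 gave no change that passed, and Arhgef15 stood at 904 ± 63.0 with vehicle and 921 ± 83.0 with basal S1P.

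With apical S1P, the 5 genes with the smallest p against vehicle were Arhgap25 (-0.18 ± 0.10), Arhgef26 (-0.53 ± 0.32), Arhgap18 (-0.27 ± 0.17), Arhgap5 (-0.13 ± 0.10) and Arhgef3 (-0.28 ± 0.21). Arhgap25 is a Rac GAP, Arhgef26 (SGEF) an exchange factor for RhoG, and Arhgap18 and Arhgef3 (XPLN) act on RhoA. Apical S1P replicate 3 was the lowest library of its group in each of these 5 genes, for example 97 in Arhgef26 where the other 3 held 297, 215 and 210. Without that library the changes were -0.11, -0.21, -0.13, -0.07 and -0.11, in the order given. Between basal and apical S1P, Arhgap25 differed by 0.21 ± 0.10, Arhgef37 by -0.38 ± 0.20, Arhgef5 by 0.14 ± 0.08 and Arhgef26 by 0.53 ± 0.32, and none passed. The difference of Arhgef26 was 0.21 without apical S1P replicate 3 and 0.83 without basal S1P replicate 2.

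None of the 48 genes passed with the agonist. Against vehicle, the genes with the smallest p for the apical agonist included Arhgap6 (-0.49 ± 0.34), Arhgap31 (0.09 ± 0.06), Arhgap23 (0.10 ± 0.07) and Arhgef18 (0.11 ± 0.09). Arhgef18 (p114RhoGEF) activates RhoA at tight junctions, and held 478, 453, 454 and 455 normalized counts with vehicle and 492, 577, 500 and 423 with the apical agonist. Its groups overlapped. Those for the basal agonist included Arhgef25 (-0.28 ± 0.22), Arhgap23 (0.08 ± 0.07), Arhgap8 (-0.14 ± 0.14) and Arhgap17 (0.11 ± 0.11). Between the basal and the apical agonist the leading genes were Arhgap8 (-0.20 ± 0.14), Arhgap6 (0.42 ± 0.34), Arhgef11 (0.13 ± 0.11), Arhgef39 (0.44 ± 0.40) and Arhgef6 (0.18 ± 0.18). All 13 of these changes were within 2 standard errors of 0.

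Counting means without regard to the test, 35 of the 48 genes had a lower mean with basal S1P than with vehicle, 17 of 21 Arhgef and 18 of 27 Arhgap genes, with a median log2 difference of -0.06 beside 0.00 for all tested genes. Of all tested genes 49.97% were lower. Without basal S1P replicate 2, 26 of 48 were lower and the median was -0.02, so this count rests largely on that library. With apical S1P 30 of 48 had a lower mean than with vehicle (24 without apical S1P replicate 3 and basal S1P replicate 2), with the apical agonist 24, and with the basal agonist 19. Leaving out 1 library at a time gave 19 to 32 for the apical agonist. For the basal agonist the count was 33 without vehicle replicate 3, 31 without basal agonist replicate 2 and 12 without basal agonist replicate 3. Scaling the libraries to equal totals left 35 of 48 lower with basal S1P and gave 30 in place of 24 for the apical agonist.

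By role, the means with basal S1P were lower than with vehicle in 3 of 3 RGS-domain exchange factors, 8 of 11 other RhoA exchange factors, 5 of 6 exchange factors for Rac1, Cdc42 or RhoG, and 12 of 14 RhoA GAPs. Among the 12 GAPs for Rac1 or Cdc42 the means were higher in 6 and lower in 6. Without basal S1P replicate 2 the lower counts were 2 of 3, 7 of 11, 4 of 6, 9 of 14 and 3 of 12. None of these genes passed the test singly, and nothing particular to a role follows from the counts.

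The members differed more by the replicate number of their library than by treatment. In the test of any difference among the 4 replicate numbers, 34 of the 48 genes passed (limma with treatment as a term, adjusted p under 0.05), 16 Arhgef and 18 Arhgap genes, where 52.4% of all tested genes did. At an unadjusted p under 0.05, 36 of 48 did, beside 60.6%. Without apical S1P replicate 3 and basal S1P replicate 2 together 38 of 48 passed, beside 65.9% of all tested genes. Without apical S1P replicate 4 alone 36 did, beside 59.8%. Replicate number accounted for a median of 47.4% of the variance of the 48 genes and 42.9% over all tested genes. Its share was above that of treatment in 43 of the 48 genes, or 89.6%, beside 82.6% of all tested genes. What the numbers stand for is not stated beyond 4 sets of cells.

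**Figure D4:**
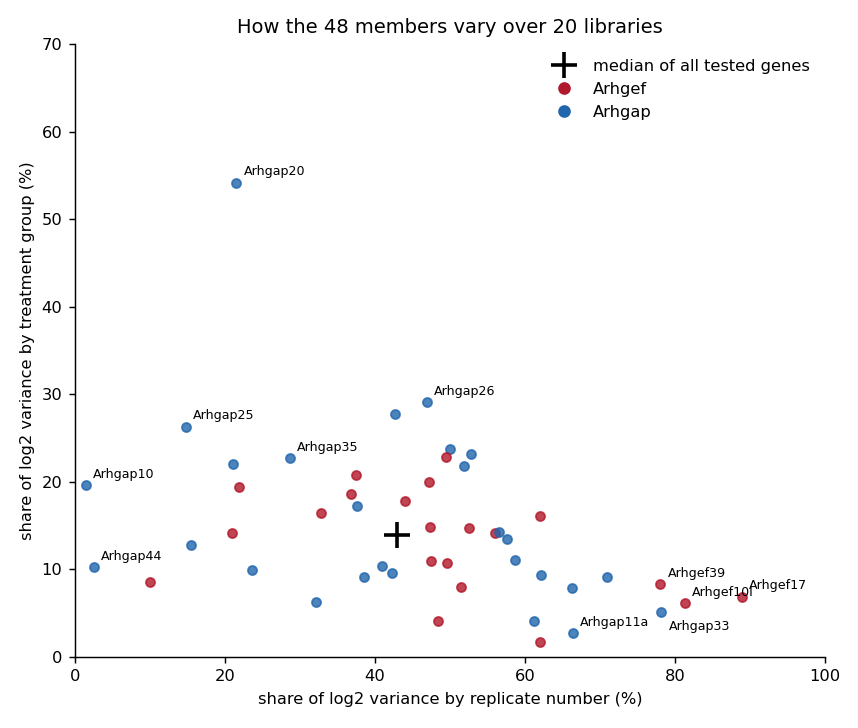
Share of the log2 variance of each of the 48 genes that lies between replicate numbers (horizontal, percent) and between treatment groups (vertical, percent), with Arhgef genes in red, Arhgap genes in blue and the median of all tested genes as a cross at 42.9% and 13.9%. Arhgap20 stands alone at the top with 54.2% by treatment, and Arhgef17 lies farthest right with 88.9% by replicate number.

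Arhgef17 (TEM4, an exchange factor for RhoA; chromosome 7, 100869752 to 100932107, minus strand) differed most. It held 312, 281, 260, 302 and 242 normalized counts in the number 1 libraries and 239, 223, 249, 274 and 179 in number 2, given for vehicle first, then the agonist (apical, basal), then S1P (apical, basal). In number 3 it held 156, 148, 144, 211 and 139, and in number 4 it held 66, 95, 92, 123 and 81. The numbers 1 and 4 did not overlap (mean 279 ± 28.9 against 91.4 ± 21.01, SD, n = 5), and 88.9% of its variance lay between numbers (limma adjusted p = 1.13e-07).

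The summed pericyte markers were also highest in number 1 and lowest in number 4, with 2265 to 2971 in number 1, 1682 to 2349 in number 2, 1018 to 1864 in number 3 and 285 to 978 in number 4. The sum of smooth muscle markers was 4446 to 5036 in number 1 and 3323 to 3974 in number 4. That of fibroblast markers was 2916 to 3329 in number 1 and 1825 to 2451 in number 4. Endothelial markers summed to 31227 to 35749 in number 1 and to 31783 to 35749 in number 4. The part of other cells in the level of Arhgef17 was not tested.

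Of the 4 genes on the list known in mitosis or cytokinesis, 3 passed between numbers, beside 52.4% of all tested genes, and Arhgef2 did not (limma adjusted p = 0.657). Arhgap11a (a RhoA GAP of dividing cells; chromosome 2, 113831492 to 113848661, minus strand) averaged 438 ± 24.8 normalized counts in number 1 (SD, n = 5), 377 ± 99.3 in number 2, 233 ± 33.6 in number 3 and 286 ± 52.4 in number 4. Arhgap19, a RhoA GAP with a role in cytokinesis (chromosome 19, 41766588 to 41802047, minus strand), averaged 224 ± 13.8, 181 ± 32.4, 136 ± 35.8 and 140 ± 6.66. Arhgef39, an exchange factor on the list of mitosis genes, averaged 93.8 ± 15.5, 75.6 ± 17.6, 45.6 ± 7.44 and 40.8 ± 7.69. All 3 passed (limma adjusted p = 0.00184, 0.00136 and 9.50e-05), and in all 3 the number 1 libraries lay above those of numbers 3 and 4. The summed proliferation markers were 9876 to 11026 in number 1, 7937 to 10656 in number 2, 5921 to 8402 in number 3 and 6739 to 7337 in number 4, and their part in these levels was not tested.

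Within number 2 the libraries were split. Arhgap11a held 439, 432 and 469 in vehicle, basal agonist and apical S1P, and 304 and 240 in apical agonist and basal S1P, and the proliferation markers summed to 10173, 10500 and 10656 in the former libraries and to 8076 and 7937 in the latter. Basal S1P replicate 2 was the lowest library of number 2 for Arhgap11a and for Arhgap20, and apical agonist replicate 2 was the next lowest for both.

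The upstream bases of Arhgap11a and Arhgap19 are shown because both changed between replicate numbers together with the proliferation markers; they were chosen after their values were seen. Both sequences are 250 bases before the RefSeq start (GRCm38.p6), written 5′ to 3′ on the minus strand, at chr2:113848662-113848911 and chr19:41802085-41802334. Capitals mark TTTGAA, the core of the element known as CHR in cell cycle promoters, and CCAAT, the box bound by NF-Y, searched on both strands. The motifs do not overlap.
Arhgap11a: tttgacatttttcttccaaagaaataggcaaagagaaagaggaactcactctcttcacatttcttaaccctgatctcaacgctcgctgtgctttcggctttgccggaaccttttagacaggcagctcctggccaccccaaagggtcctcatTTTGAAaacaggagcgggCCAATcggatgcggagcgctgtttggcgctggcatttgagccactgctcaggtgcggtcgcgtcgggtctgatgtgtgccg
Arhgap19: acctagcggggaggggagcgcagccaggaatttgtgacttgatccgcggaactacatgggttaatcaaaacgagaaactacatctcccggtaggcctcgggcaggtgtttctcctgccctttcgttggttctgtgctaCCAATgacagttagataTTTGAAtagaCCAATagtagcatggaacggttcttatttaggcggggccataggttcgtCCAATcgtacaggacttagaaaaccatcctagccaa

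Counted back from the first transcribed base, Arhgap11a held TTTGAA at bases 99 to 94 and CCAAT at 81 to 77. Arhgap19 held TTTGAA at 95 to 90 and CCAAT at 112 to 108, 85 to 81 and 36 to 32. Of 32851 mouse promoter windows of the same length, 15.99% held TTTGAA, 33.8% CCAAT and 5.55% both. Of the 33 genes described here that had a window, 3 held TTTGAA (9.09%), namely Arhgap11a, Arhgap19 and Arhgef3. The same 3 held both motifs (9.09%), and 11 held CCAAT (33.3%). Arhgef39, which also passed between numbers, was not among the genes with a match, and whether it had a window is not given here. A match is a string of letters and no evidence of binding.

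The other genes among the 8 with the smallest p between numbers were Arhgap33, Arhgef10l, Arhgap39 and Arhgap12. Arhgap33, a GAP known in neurons, held 43 to 65 normalized counts in number 1, 23 to 95 in number 2, 7 to 27 in number 3 and 11 to 22 in number 4 (limma adjusted p = 0.000114). Arhgef10l, a RhoA exchange factor, averaged 29.4 ± 6.19 in number 1 and 10 ± 2.74 in number 4 (SD, n = 5). Arhgap39 (Vilse) averaged 91.0 ± 8.80 in number 1 and 55.8 ± 6.06 in number 4, and Arhgap12 averaged 349 ± 17.7 in number 1 and 262 ± 8.46 in number 3. In each of these 4 genes number 1 did not overlap with the lowest number.

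**Figure D5:**
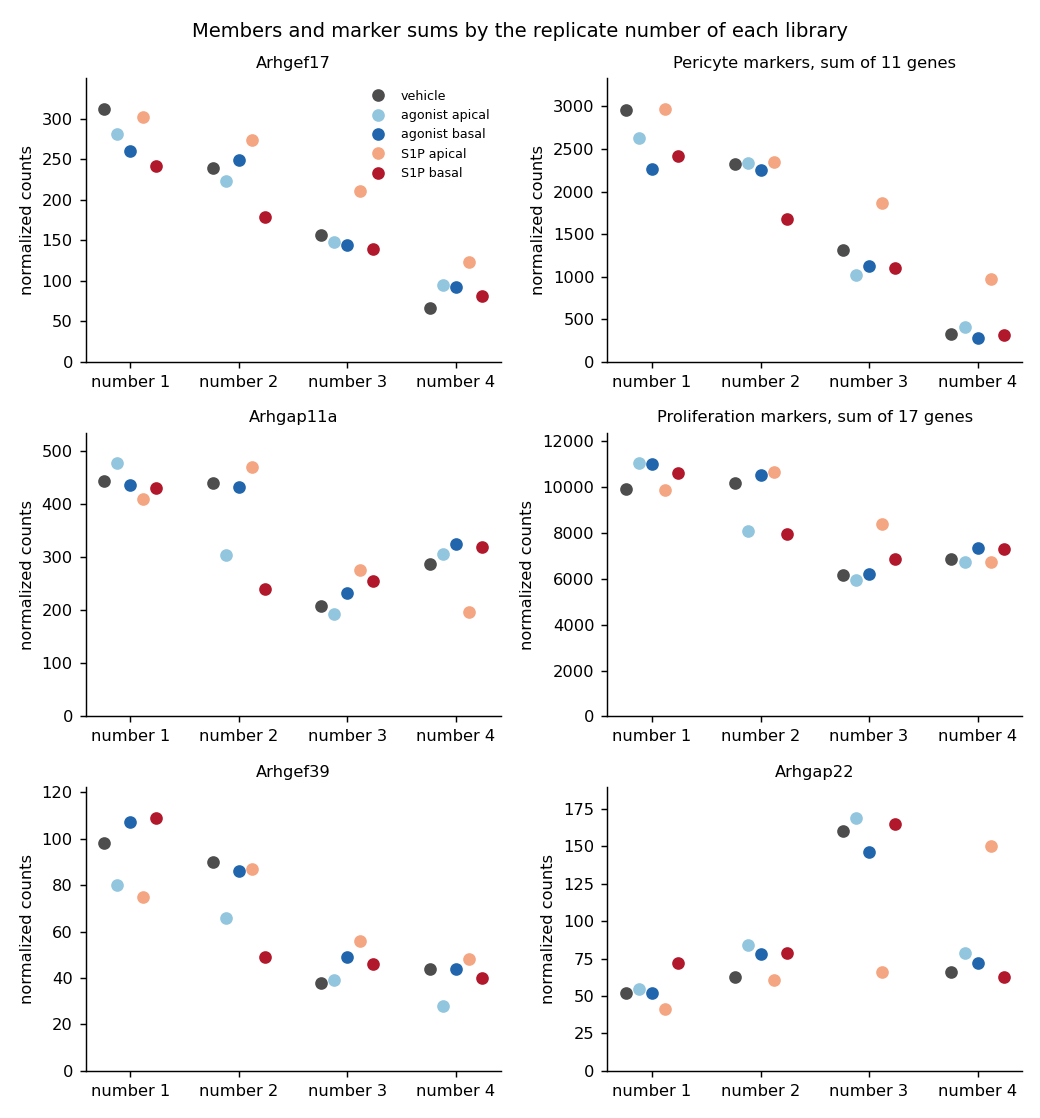
Normalized counts of Arhgef17, Arhgap11a, Arhgef39 and Arhgap22 and the summed pericyte and proliferation markers in the 20 libraries, by replicate number and colored by treatment. Arhgef17 lies at 242 to 312 in number 1 and at 66 to 123 in number 4, beside a pericyte sum of 2265 to 2971 and 285 to 978, and Arhgap22 is high in 4 of the 5 libraries of number 3 and in apical S1P replicate 4.

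Arhgap22, a Rac1 GAP known in endothelial cells, went the other way. It held 160, 169, 146 and 165 normalized counts in number 3 of vehicle, apical agonist, basal agonist and basal S1P, and 150 in apical S1P replicate 4. The other 15 libraries held 41 to 84, and apical S1P replicate 3 was among them with 66. The library labelled apical S1P replicate 4 thus had the level of the number 3 libraries, and the library labelled apical S1P replicate 3 that of the other numbers. Arhgap22 shares 36.9% of its exonic bases with Gm15512 on the opposite strand, and no source used here says whether the counting separated strands.

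At the other extreme, 14 of the 48 genes did not pass between numbers. Among them were Arhgap10 (adjusted p = 0.979, 101 to 139 normalized counts over 20 libraries), Arhgap44 (adjusted p = 0.958, 169 to 232), Arhgef2, Arhgap23, Arhgap31, Arhgap35, Arhgef18 and Arhgef40. Arhgap10 and Arhgap44 each had under 2.5% of their variance between numbers. These hold both abundant and middle-level genes of both families.

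The GTPases and their other regulators were examined from lists of the pathway. Of 20 tested GTPases of the family, 0 passed for basal S1P against vehicle, and 14 had a higher and 6 a lower mean with basal S1P. Rhoa averaged 622 ± 42.0 with vehicle and 685 ± 56.4 with basal S1P (SD, n = 4), Rac1 996 ± 85.6 and 1081 ± 94.2, and Cdc42 1074 ± 116 and 1209 ± 138. The smallest p values belonged to Rnd2, a constitutively GTP-bound family member (log2 change 0.33 ± 0.13), Rhoc (0.21 ± 0.11) and Rhof (-0.46 ± 0.28), with an adjusted p of 0.756 for each. The 2 tested inhibitors that hold GTPases in the cytosol, Arhgdia and Arhgdib, differed by 0.15 ± 0.10 and 0.21 ± 0.20.

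Of 41 exchange factors with other symbols, 0 passed, and 9 had a higher and 32 a lower mean with basal S1P than with vehicle. Without basal S1P replicate 2 this count turned, with 25 higher and 16 lower. Leading by p were Vav3 (0.55 ± 0.22), Prex2 (-0.20 ± 0.09) and Dock8 (0.30 ± 0.16), none of which passed. Of 22 other GAPs 0 passed, with 7 higher and 15 lower, and 12 higher and 10 lower without that library; Fam13a (-0.65 ± 0.28), Myo9a (-0.32 ± 0.18) and Gmip (-0.28 ± 0.21) had the smallest p values.

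Of 42 effectors and myosin regulators 0 passed, with 25 higher and 17 lower (31 and 11 without basal S1P replicate 2), led by Cfl1 (cofilin, 0.20 ± 0.09), Myh9 (non-muscle myosin heavy chain, 0.13 ± 0.06) and Pak1 (0.25 ± 0.15). Of 21 G proteins and partners of Rap1 0 passed, with 15 higher and 6 lower (18 and 3 without that library). Rapgef4 (Epac2, an exchange factor for Rap1) averaged 291 ± 33.5 with vehicle and 378 ± 46.8 with basal S1P, a log2 change of 0.37 ± 0.11 (limma adjusted p = 0.729). Git1, the partner of Arhgef6 and Arhgef7, differed by 0.13 ± 0.06, and Gnb2 by 0.14 ± 0.07. Rasip1, the partner of Arhgap29, averaged 1233 ± 116 with vehicle and 1324 ± 137 with basal S1P. No gene of these 6 lists passed in any other comparison of treatments either. Between replicate numbers 8 of 20 GTPases, 28 of 41 exchange factors, 9 of 22 GAPs, 27 of 42 effectors, 14 of 21 G proteins and Rap1 partners and 2 of 2 inhibitors passed, beside 52.4% of all tested genes.

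No gene among the 48 shares more than 5% of its exonic bases with another gene on the same strand, and 8 do with a gene on the opposite strand. Beside Arhgap22 these were Arhgap27 (23.1%), Arhgef26 (21.6%), Arhgef11 (12.5%), Arhgap6 (11.01%), Arhgap10 (10.5%), Arhgef12 (8.9%) and Arhgef4 (7.9%). Where counting ignored strand, part of their values would belong to the overlapping gene.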

How the data were processed

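Poly(A) RNA of wild-type cells was measured in 20 libraries, 5 groups of 4. Per the submitters' processing notes, the tools were DESeq2 1.26.0, featureCounts 1.6.5 (Subread), STAR 2.7.3a, Trimmomatic 0.38 and FastQC, with build mm10; no source used here gives their settings. The deposited table holds a signal per gene: the authors' counts divided by a factor per library and rounded to whole numbers, as read from the values. The reads could not be recovered, so no count model was run and no counting interval is given; the depth of 3.93 to 5.54 M reads is an estimate from the steps between values. Small changes of any gene can follow the library factor.

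Log2(value + 1) of the 12249 genes with a mean of at least 10 was fitted with limma 3.58.1 (R 4.3.3) with 1 mean per group, all 20 libraries in the fit and a prior variance that follows the mean (trend), and the Benjamini-Hochberg adjustment ran over all 12249 genes; calls are at an adjusted p under 0.05. The scale understates changes of low genes. Differences among replicate numbers were tested with treatment as a term. Exonic lengths are from GENCODE M21, in which 47 of the 48 genes have the table's start and end. Promoter sequences are from RefSeq on GRCm38.p6. The fit was tested on simulated data.

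The genes and lists were chosen with earlier results of these data known. Named were the 5 genes with the smallest p in each comparison of treatments, the 12 highest per kilobase, the 8 with the smallest p between replicate numbers, 5 on either side of the minimum, up to 4 of each role and up to 3 of each pathway list. Values of 1 of the 48 genes are not reported here; it stays in all counts and medians. The knockout table was normalized separately and was not used here. Alternatives were other pseudocounts, filters, scalings and prior variances, only the groups compared, a replicate block and leaving out libraries.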

Additional observations from a re-analysis of the deposited data

Results flagged for a closer look

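In 12 of the 240 sets of 4 libraries (48 genes in 5 groups), 1 library lay farther from the other 3 than a 95% limit for such gaps allows, and chance flags about 1 in 20 sets, which is 5% and equals the share seen. With vehicle, Arhgap31 was low in replicate 3 (2557 normalized counts, the others 2892 to 2960), Arhgef7 high in replicate 4 (1943, the others 1670 to 1709), Arhgef18 high in replicate 1 (478, the others 453 to 455) and Arhgap22 high in replicate 3 (160, the others 52 to 66). With the agonist, Arhgef1 (840, the others 889 to 893) and Arhgef5 (755, the others 878 to 887) were low in basal replicate 3. Arhgap26 was high in basal replicate 4 (783, the others 656 to 662), and Arhgap25 was high in apical replicate 4 (458, the others 370 to 380). With basal S1P, Arhgap21 (481, the others 724 to 767) and Arhgap32 (213, the others 280 to 290) were low in replicate 2, a library that stood apart. Arhgap22 was high in replicate 3 (165, the others 63 to 79), and Arhgef39 was high in replicate 1 (109, the others 40 to 49).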

How the results depend on the processing

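Under 30 alternatives, 265 of 267 values of the counts of passing genes stayed within 1.5 times of the reported count, and 1298 of 1299 values for single named genes kept their direction and side of the threshold. The 2 exceptions among the counts and the 1 among the genes came from the replicate block, the fit with the replicate number of the labels as a term. No fit with the block left out a library, so the doubtful numbers of apical S1P replicates 3 and 4 and basal S1P replicate 2 stayed in it. With the block, 1 of 48 genes passed in basal against apical S1P (Arhgef17, -0.53 ± 0.12, limma adjusted p = 0.0472; 83 genes in all) and 1 in basal S1P against the 3 tightening treatments (Arhgap20, -0.35 ± 0.06, adjusted p = 0.0113; 137 genes in all), and 0 in the other comparisons of treatments. In basal against apical S1P the mean was lower with basal S1P in 9 of 9 tested pericyte markers (median log2 difference -0.80) and in 10 of 11 smooth muscle markers (-0.69); their part in the value of Arhgef17 was not tested. Over all alternatives the adjusted p of Arhgap20 against the tightening treatments ran from 0.0113 to 0.510 and its log2 change from -0.42 to -0.23. Leaving out 1 library at a time, 0 of the 48 genes passed in every comparison of treatments and 24 to 37 between replicate numbers, where 34 passed in full. Of all tested genes, 39.8% to 62.5% passed between numbers in the same fits, beside 52.4% in full. The main fit did not take the numbers as pairing the libraries. Of 40 same-numbered pairs, 36 had correlated deviations (r over 0.1) and 4 did not (r down to -0.34). All 4 involved apical S1P replicate 3 or basal S1P replicate 2. The median r was 0.61 for same-numbered and -0.26 for other pairs, and 16 of 20 libraries correlated best with their own number. The main fit leaves the differences between numbers in its error. In basal S1P against vehicle 47 genes passed with the block and 3 in the main fit. The standard errors of 0.05 to 0.80 are not detection limits, since passing took a change of several standard errors. In the main fit Arhgap20 did not pass against the tightening treatments at -0.35 ± 0.08 (limma adjusted p = 0.150).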
